A study of Rattus norvegicus with 6 samples.

Results

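The ribosomal protein genes of the cytosolic ribosome were described in whole newborn rat ovaries cultured with connective tissue growth factor (CTGF). All probe sets whose only gene symbol in the platform annotation starts with Rpl, Rplp or Rps and a number, or with Rpsa, were taken, without the Rps6k kinases and Rps19bp1. These were 260 of the 27342 probe sets, and they belonged to 73 of the 14324 genes with a symbol of their own. Among them, 27 encode proteins of the small subunit, 43 of the large subunit and 3 of the stalk. For each gene the probe set with the highest mean over the arrays was used. Of the 73 genes, 5 are related or pseudogene symbols (Rpl17-ps16, Rpl22l1, Rpl36al1, Rpl37l1 and Rps4y2).

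Transcripts were measured on 6 Rat Gene 1.0 ST arrays. The 3 CTGF samples were ovaries of 0-day-old Sprague-Dawley pups kept in organ culture for 24 h with human CTGF at 500 ng/ml, and the 3 control samples were such ovaries after 24 h without added factor. Between 2 and 3 ovaries of the same culture well were pooled for a sample, and each of the 3 culture batches gave 1 CTGF pool and 1 control pool. Whole ovaries hold oocytes, somatic cells, vessels and blood cells together, so fewer cells of a type and less RNA per cell cannot be told apart.

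A ribosome joins a small subunit, which reads the mRNA, and a large subunit, which forms the peptide bonds and carries a flexible stalk that recruits elongation and initiation factors. The mRNAs of nearly all mammalian ribosomal proteins begin with a C followed by a run of pyrimidines, the 5′ terminal oligopyrimidine motif, through which signalling by the kinase mTOR and the RNA-binding protein Larp1 controls their translation. That control acts on ribosome loading more than on mRNA level, and the arrays measured mRNA level alone. Oocytes store ribosomes and transcripts for the embryo as they grow, and the dividing somatic cells of the newborn ovary make ribosomes as well.

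The starts of these genes were read from RefSeq, which gave a window of 250 bases before to 50 bases after the annotated start on the GRCr8 assembly for 60 of the 73 genes. Each line below holds 30 bases on the strand of the gene, with the annotated start as base 16, and capitals mark the longest run of C and T where a run of at least 7 lies within 20 bases of the start. The first 6 are shown because they carry such a run and recur in the results, and the last 3 because they do not.
Rps26, chr7:1643390-1643419, minus strand: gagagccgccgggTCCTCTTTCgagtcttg
Rpl35a, chr11:81235007-81235036, minus strand: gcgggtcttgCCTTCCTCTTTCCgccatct
Rplp1, chr8:71290858-71290887, minus strand: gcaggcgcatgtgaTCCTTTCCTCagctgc
Rps15, chr7:10068101-10068130, minus strand: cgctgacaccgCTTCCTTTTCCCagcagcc
Rps15a, chr1:181860270-181860299, minus strand: cggcgTTTTCTTTCCacagtcaccatggtg
Rpl22, chr5:168117946-168117975, plus strand: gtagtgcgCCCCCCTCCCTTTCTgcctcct
Rpl22l1, chr2:113683181-113683210, plus strand: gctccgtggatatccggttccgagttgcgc
Rpl24, chr11:58128391-58128420, minus strand: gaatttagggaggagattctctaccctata
Rps12, chr1:23500060-23500089, plus strand: gcacagaagcccagcagagcgcttaaatac

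A run of at least 7 pyrimidines within 20 bases of the start was present in 49 of the 60 windows (81.7%), against 23.7% of all 33469 RefSeq windows of the same length. On the other strand the run was present in 11.7% of the ribosomal protein windows and 25.7% of all windows. A C at the annotated start followed by at least 4 pyrimidines was present in 23 of the 60 (38.3%), against 2.63% of all windows. The longest run had a median of 10 bases in the ribosomal protein windows, with a range of 3 to 21, and a median of 5 in all windows. Rpl22 and its paralog Rpl22l1, whose proteins are close relatives, stood apart here, with a run of 15 bases at Rpl22 and of 4 at Rpl22l1. The annotated start can lie some bases from the true one, and a window without the run says only that these letters were not found there.

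**Figure D1:**
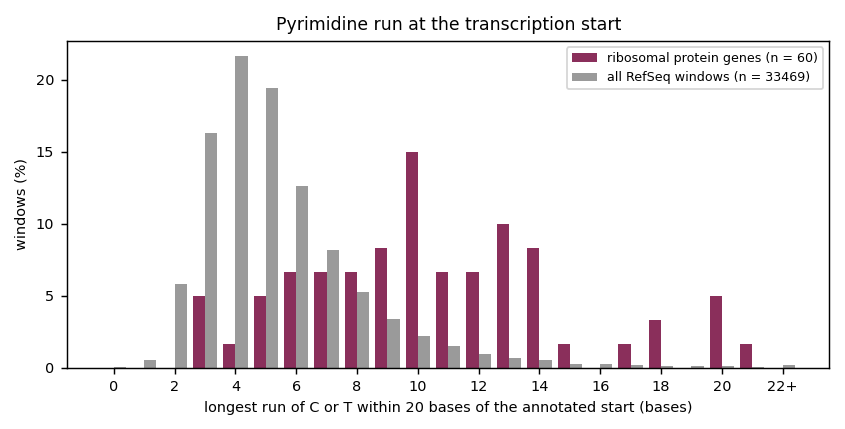
The longest run of C or T (bases, x axis) within 20 bases of the annotated start, as the percentage of windows (y axis) for the 60 ribosomal protein genes with a window and for all 33469 RefSeq windows. The ribosomal protein genes have a median of 10 bases and all windows a median of 5.

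Short promoter letters were searched on both strands of the 300-base windows. GGGCGG, the core of the Sp1 motif, was present in 58.3% of the ribosomal protein windows and 33.1% of all windows. CCGGAAG, an Ets-type motif, was present in 30% and 8.75%, and AAGATGGC, a core of the YY1 motif, in 8.33% and 3.17%. TATAAA, the TATA box, was present in 11.7% of the ribosomal protein windows and 14.2% of all windows. The end of CCGGAAG can overlap the start of AAGATGGC, and its reverse complement holds pyrimidines that can lie in a run. These matches are descriptions and not binding sites.

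The ribosomal protein transcripts of CTGF-treated and control ovaries differed little after 24 h. Of the 73 genes, 20 had a mean log2 difference (CTGF minus control, 3 culture batches) above 0, 52 below 0 and 1 at 0, with a median of -0.02 and a range of -0.18 for Rpl24 to 0.12 for Rpl22l1. No gene had an adjusted p under 0.05 in limma, and every ribosomal protein gene had an adjusted p of 0.994 or more. Across all 27342 probe sets 0% passed that threshold too. At an unadjusted p under 0.05, 1 of the 73 genes was called, Rpl24, which was lower. Of all probe sets 3.35% were called at that threshold, 1.45% higher and 1.89% lower with CTGF.

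The range of change that the 6 arrays allow was taken for each gene from its interval. The 95% interval of the limma difference extended a median of 0.161 on the log2 scale to either side, with a range of 0.151 to 0.348. For 66 of the 73 genes the whole interval lay within a 1.2-fold change in either direction. It reached beyond that bound for Rpl18, Rpl22l1, Rpl24, Rps12, Rps14, Rps15 and Rps27, and it left out 0 for Rpl24 alone. The intervals rest on 3 pairs and on a spread moderated over all probe sets, so the number of arrays limits them. None of the 73 genes met the study's criteria of a ratio of un-logged means over 1.2 or under 0.83, a difference over 10 and an unadjusted p under 0.05 (here from limma), which 119 of all probe sets met. The ratios of the 73 genes lay between 0.883 and 1.089. The study's own list of regulated genes holds entries described as similar to ribosomal proteins, which the symbol rule used here did not take.

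**Figure D2:**
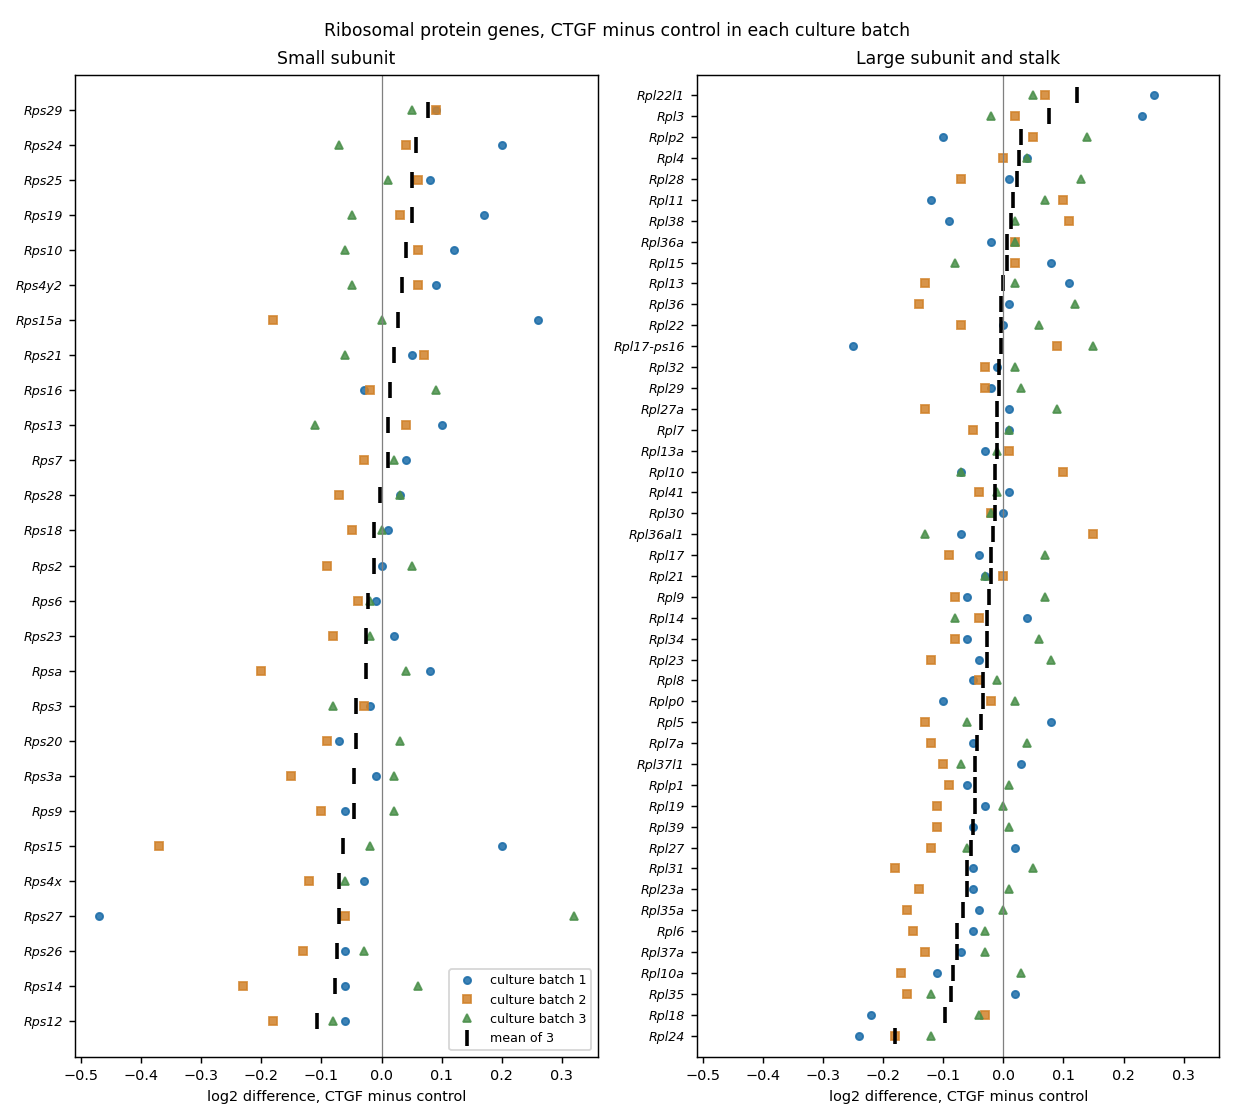
The log2 difference, CTGF minus control, of each of the 73 genes (x axis, log2 units) in culture batch 1, 2 and 3 (points) and as their mean (black bar), sorted by the mean in the small subunit and in the large subunit with the stalk. Means run from -0.18 (Rpl24) to 0.12 (Rpl22l1), and the batches of most genes lie on both sides of 0.

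The differences were also given by culture batch. The median over the 73 genes was -0.02 in batch 1, -0.07 in batch 2 and 0.01 in batch 3. In batch 2, 52 genes were below 0 and 19 above, whereas 40 were below and 30 above in batch 1, and 31 below and 38 above in batch 3. Over all probe sets the batch medians were 0.00, -0.01 and 0.00. Over the 3343 other probe sets of similar signal (mean log2 signal 8.96 to 12.6) they were 0.02, 0.01 and -0.01. Of those probe sets 45.2% had a mean difference below 0, against 71.2% of the ribosomal protein genes and 51.1% of all probe sets. They share the signal range but were not matched within it, with a median log2 signal of 9.72 against 11.4 for the ribosomal protein genes. Without the arrays of batch 2, 31 ribosomal protein genes were above 0 and 35 below, with a median of 0.00, so the excess of genes below 0 rested mainly on batch 2. With each array centred on its median 30 were above and 38 below, but centring moved the median of all probe sets to 0.010 along with that of the ribosomal protein genes, to -0.007. The deposited values have the same mean of the CTGF and control array in each batch for every probe set, to within 0.005, so the CTGF and control values of a batch lie opposite each other about that mean.

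The arrays gave the same picture of small shifts. The median log2 signal of the 73 genes was 11.35, 11.39 and 11.41 on the CTGF arrays of batches 1, 2 and 3, against 11.45, 11.41 and 11.39 on the control arrays. Their share of the summed signal of the array was 3.02%, 2.99% and 3.07% in CTGF ovaries, against 3.08%, 3.11% and 3.03% in control ovaries. The CTGF array was thus below its control in batches 1 and 2 and above it in batch 3, so the groups overlapped. The array medians over all probe sets lay between 5.82 and 5.84. Of the 73 genes 65 had a mean log2 signal over 9, but probes differ in how well they bind, so the signal does not rank the transcripts.

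The spread of the ribosomal protein genes between batches was narrow. The SD of the 3 batch differences had a median of 0.071 over the 73 genes, against 0.095 over the probe sets of similar signal and 0.121 over all probe sets. Both of these sets had a lower median signal than the 73 genes, and the part of signal level in the narrower spread was not tested. The median size of the mean difference was 0.03. Across the 73 genes the differences of batches 1 and 3 correlated at -0.391, those of batches 1 and 2 at 0.023 and those of batches 2 and 3 at -0.043. Over the probe sets of similar signal the same 3 correlations were -0.247, 0.000 and -0.210. These are correlations across genes on the same 6 arrays, and genes are not independent replicates.

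Because the batch means are equal, the CTGF and control values of a gene do not overlap when its 3 differences have the same sign. That was so for 13 of the 73 genes. Rpl22l1, Rps25 and Rps29 were higher with CTGF in all 3 batches, which is 4.11% of the genes, against 9.41% of all probe sets. Rpl18, Rpl24, Rpl37a, Rpl6, Rpl8, Rps12, Rps26, Rps3, Rps4x and Rps6 were lower in all 3, which is 13.7%, against 10.9% of all probe sets. Among the probe sets of similar signal 9.93% were higher and 6.82% lower in all 3 batches. With each array centred on its median, an alternative chosen after seeing the data, 4 genes were higher in all 3 batches and 8 lower, with Rpl4 joining the higher genes and Rpl8 and Rps6 leaving the lower ones, beside 12.1% of all probe sets higher and 8.33% lower in that setting. Apart from Rpl24 these genes did not pass at an unadjusted p under 0.05 in limma.

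Among the large subunit genes, 8 had a mean difference above 0, 34 below and 1 at 0, with a median of -0.02 and batch medians of -0.03, -0.07 and 0.01. Without batch 2 there were 15 above and 23 below, and with centred arrays 17 above and 23 below. Rpl24 encodes a protein that lies at the contact between the subunits, and partial loss of its function causes a belly spot and a kinked tail in the mouse. Rpl24 had log2 signals of 8.70, 8.73 and 8.76 in CTGF ovaries, against 8.94, 8.91 and 8.88 in control ovaries. The highest CTGF array lay below the lowest control array, and the mean difference was -0.18 (SE 0.065, unadjusted p = 0.0317 and adjusted p = 0.994 in limma). Without the arrays of batch 1 or of batch 2 its unadjusted p in limma was 0.101 or 0.0919, and without those of batch 3 it was 0.0368. The second probe set of Rpl24 differed by 0.16, 0.04 and -0.10 in batches 1, 2 and 3, so both probe sets were lower in batch 3 alone.

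Rpl22l1, the paralog of Rpl22 that can replace it in the large subunit, had the highest mean difference. Its log2 signals were 8.95, 8.86 and 8.85 in CTGF ovaries, against 8.70, 8.79 and 8.80 in control ovaries. All 3 CTGF arrays lay above the control arrays, with most of the mean difference of 0.12 (SE 0.072, unadjusted p = 0.135 in limma) coming from batch 1, where it was 0.25. Rpl22 itself, which carries the pyrimidine run printed above, had log2 signals of 10.33, 10.29 and 10.36 in CTGF ovaries, against 10.33, 10.36 and 10.30 in control ovaries. These values overlapped, and the mean difference was 0.00 (SE 0.066, unadjusted p = 0.961 in limma). Whether the 2 paralogs differ in their response was not tested.

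Rpl18, a large subunit protein, had log2 signals of 11.07, 11.17 and 11.16 in CTGF ovaries, against 11.29, 11.20 and 11.20 in control ovaries. The CTGF array of batch 1 stood farthest from its control, by -0.22, and the other batches differed by -0.03 and -0.04. Rpl35, whose protein lies near the exit tunnel for the growing peptide, differed by 0.02, -0.16 and -0.12 in batches 1, 2 and 3, and Rpl3, which shapes the peptidyl transferase centre, by 0.23, 0.02 and -0.02. Their mean differences were -0.10 for Rpl18, -0.09 for Rpl35 and 0.08 for Rpl3, with unadjusted p = 0.223, 0.257 and 0.352 in limma.

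Rpl5 and Rpl11 bind the 5S rRNA and, outside the ribosome, the p53 regulator Mdm2. Rpl5 differed by 0.08, -0.13 and -0.06 in the 3 batches and Rpl11 by -0.12, 0.10 and 0.07, so neither gene kept a direction. Rpl13a, a component of a complex that silences inflammatory mRNAs in human cells and a frequent reference gene, had log2 signals of 11.28, 11.30 and 11.29 in CTGF ovaries, against 11.31, 11.29 and 11.30 in control ovaries. Its values spanned 0.03 over all 6 arrays, among the steadiest of the named genes. Rpl30, which in yeast represses the splicing of its own transcript, differed by 0.00, -0.02 and -0.02, and Rpl10, a late-joining protein needed to finish the large subunit, by -0.07, 0.10 and -0.07.

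The remaining large subunit genes named by the rule did not hold a direction over the batches. Rpl36a differed by -0.02, 0.02 and 0.02, and its relative Rpl36al1 by -0.07, 0.15 and -0.13. Rpl17 differed by -0.04, -0.09 and 0.07. The symbol Rpl17-ps16, a pseudogene of Rpl17, differed by -0.25, 0.09 and 0.15 at a mean log2 signal of 6.36. Outside the rule, Rpl35a, whose start is printed above, differed by -0.04, -0.16 and 0.00 (named after its values were seen). All 9 of its probe sets had a mean difference below 0, from -0.093 to -0.057.

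Of the 3 stalk genes, Rplp2 had a mean difference above 0 and Rplp0 and Rplp1 below 0. Rplp0, the base of the stalk and another frequent reference gene, had log2 signals of 11.35, 11.39 and 11.41 in CTGF ovaries, against 11.45, 11.41 and 11.39 in control ovaries. Rplp1 and Rplp2 are the acidic proteins that bind the elongation factors. Rplp1 had 12.60, 12.59 and 12.64 in CTGF ovaries, against 12.66, 12.68 and 12.63 in control ovaries, and Rplp2 had 11.54, 11.62 and 11.66, against 11.64, 11.57 and 11.52. The groups overlapped for each of them, all 3 genes were below 0 in batch 1 and above 0 in batch 3, and the unadjusted p values in limma were 0.627 for Rplp0, 0.495 for Rplp1 and 0.698 for Rplp2.

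Among the small subunit genes, 11 had a mean difference above 0 and 16 below, with a median of -0.01 and batch medians of 0.02, -0.06 and 0.00. Without batch 2 there were 15 above and 10 below, and with centred arrays 12 above and 13 below. Rps12, a small subunit protein that in Drosophila takes part in the competition between cells of unequal ribosome dosage, had the lowest mean of them. Its log2 signals were 10.79, 10.73 and 10.78 in CTGF ovaries, against 10.85, 10.91 and 10.86 in control ovaries. Every CTGF array lay below every control array, and the mean difference was -0.11 (SE 0.066, unadjusted p = 0.154 in limma). Rps26, which contacts the mRNA upstream of the start codon in the initiating ribosome, had 11.65, 11.62 and 11.67 in CTGF ovaries, against 11.71, 11.75 and 11.70 in control ovaries. These did not overlap either, and the mean difference was -0.07 (SE 0.064, unadjusted p = 0.297 in limma).

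Rps29, a small zinc-binding protein mutated in some families with Diamond-Blackfan anaemia in human, was the highest of the small subunit genes. Its log2 signals were 12.92, 12.92 and 12.90 in CTGF ovaries, against 12.83, 12.83 and 12.85 in control ovaries. The groups did not overlap and the 3 differences of 0.09, 0.09 and 0.05 were close to each other, with a mean of 0.08 (SE 0.063, unadjusted p = 0.265 in limma). Rps19, the gene most often mutated in that anaemia, differed by 0.17, 0.03 and -0.05 in the 3 batches. Rps25, which some viral internal ribosome entry sites need, was higher by 0.08, 0.06 and 0.01 (named after its values were seen), with an unadjusted p of 0.459 in limma.

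**Figure D3:**
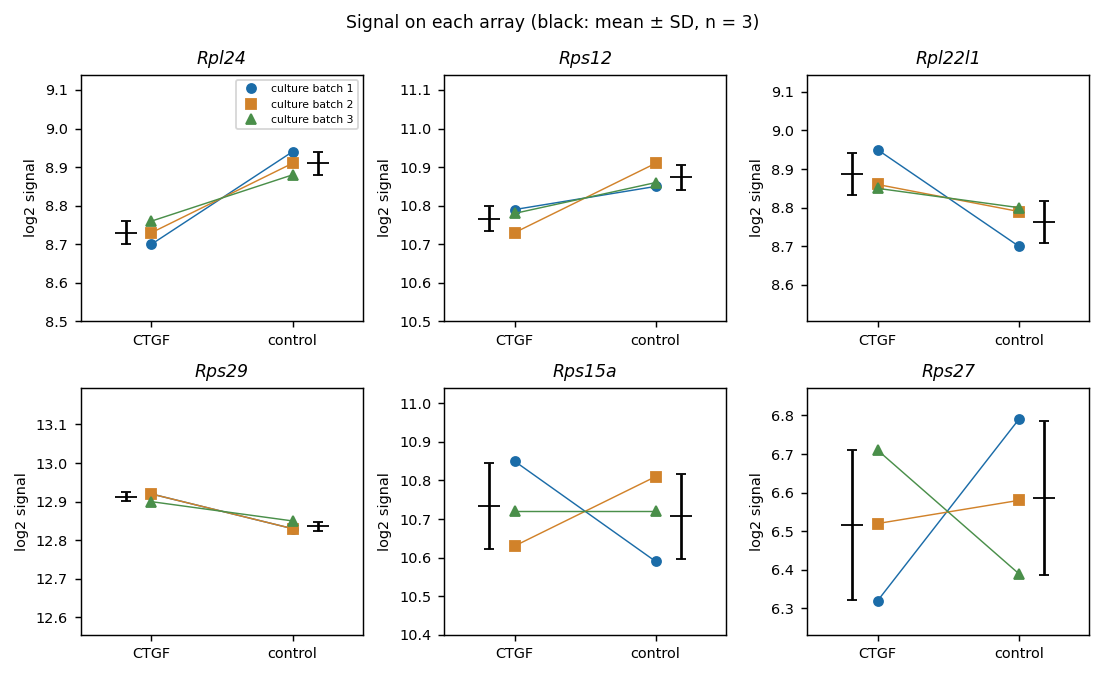
The log2 signal (y axis) of Rpl24, Rps12, Rpl22l1, Rps29, Rps15a and Rps27 on each array, CTGF at the left and control at the right, with lines joining the pools of a culture batch and black marks giving the mean ± SD of 3 arrays. CTGF and control do not overlap for the first 4 genes, while the lines of Rps15a and Rps27 cross.

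The widest spread of the batch differences among the ribosomal protein genes was that of Rps27, Rps15 and Rps15a. Rps27, a zinc-finger protein with a single probe set and a low mean log2 signal of 6.55, had 6.32, 6.52 and 6.71 in CTGF ovaries, against 6.79, 6.58 and 6.39 in control ovaries. Its differences of -0.47, -0.06 and 0.32 ran from the lowest to the highest of the named genes. Rps15, which is needed for the export of the small subunit from the nucleus and is mutated in some human leukaemias, differed by 0.20, -0.37 and -0.02. Rps15a had 10.85, 10.63 and 10.72 in CTGF ovaries, against 10.59, 10.81 and 10.72 in control ovaries. It was above its control by 0.26 in batch 1, different by -0.18 in batch 2 and equal in batch 3, so its mean of 0.03 describes none of the batches.

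Rps6, the substrate of the S6 kinases, had log2 signals of 12.51, 12.49 and 12.50 in CTGF ovaries, against 12.52, 12.53 and 12.52 in control ovaries. The arrays did not overlap, but the mean difference was only -0.02 (SE 0.062, unadjusted p = 0.721 in limma). Rps3, a protein of the mRNA entry channel with a second role in DNA repair, differed by -0.02, -0.03 and -0.08. Rps14, whose loss of a copy underlies the anaemia of the human 5q deletion syndrome, differed by -0.06, -0.23 and 0.06, and Rpsa, also known as the laminin receptor, by 0.08, -0.20 and 0.04. Rps4x, on the X chromosome, differed by -0.03, -0.12 and -0.06, and its relative Rps4y2, which RefSeq places on chromosome 4 in the rat, differed by 0.09, 0.06 and -0.05. The second probe set of Rps3, at a mean log2 signal of 6.44, was higher by 0.18 in batch 2. That of Rps4x differed by 0 in batch 1 and by -0.02 in batch 2. Neither second probe set was lower in all 3 batches.

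Several probe sets of a gene allowed a check of each difference. Of the 73 genes, 55 had more than 1 probe set, up to 21 for Rpl21, and 18 had 1. The probe sets of a gene can share targets, since the ribosomal protein genes have many processed pseudogenes of near-identical sequence, so they are not replicates and the gene assignment of each is uncertain. In 48 of the 55 genes the SD of the gene's mean difference between batches was larger than the median SD between its probe sets within a batch. The median of these SDs was 0.0625 between batches and 0.0212 between probe sets. The sign of the mean difference was shared by all probe sets in 37 of the 55 genes.

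Of the 55 genes, 5 had every probe set lower in all 3 batches (Rpl37a, Rpl6, Rpl8, Rps12 and Rps26). Another 2, Rps25 and Rps29, had every probe set higher in all 3. The same was not counted over other genes with several probe sets, so no share stands beside these counts. Rps26 had 6 probe sets, with mean differences of -0.103 to -0.053, and Rps12 had 4, with -0.13 to -0.09. Rps29 had 4, with 0.05 to 0.077. The 6 probe sets of Rps15a also moved together, by 0.24 to 0.28 in batch 1, by -0.20 to -0.16 in batch 2 and by -0.06 to 0.03 in batch 3. The 13 probe sets of Rpl7a gave -0.09 to -0.01, -0.15 to -0.09 and 0.03 to 0.07 (Rpl7a was named after its values were seen). For Rpl24, in contrast, the SD between its 2 probe sets was 0.156.

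**Figure D4:**
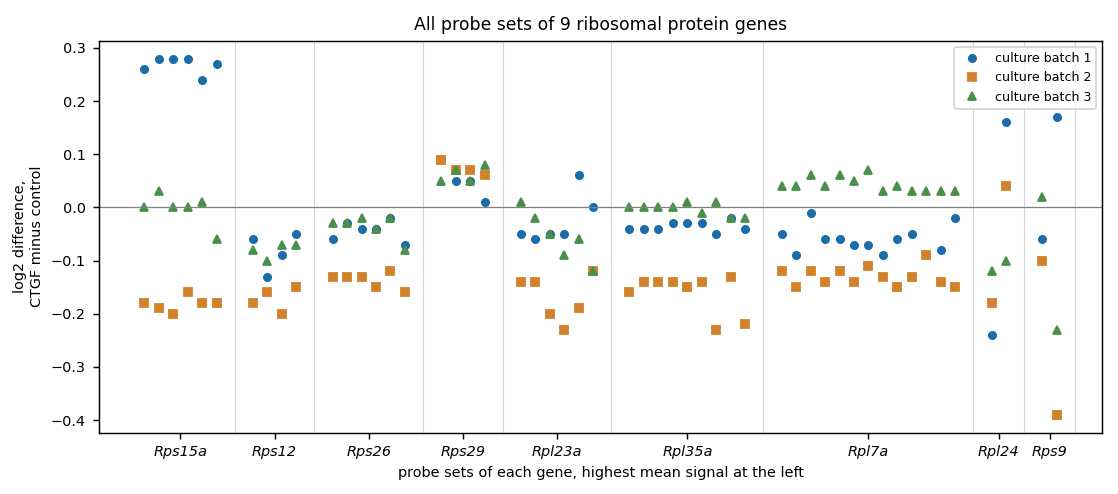
The log2 difference, CTGF minus control (y axis), of every probe set of 9 ribosomal protein genes in culture batches 1, 2 and 3, with the probe set of highest mean signal at the left of each gene. The 6 probe sets of Rps15a repeat the split of 0.24 to 0.28 in batch 1 and -0.20 to -0.16 in batch 2, and the 2 probe sets of Rpl24 disagree in batches 1 and 2.

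The genes that build and regulate ribosomes were described beside the ribosomal proteins. Of the ribosomal proteins under other symbols, Fau, the precursor of a small subunit protein, differed by 0.00, -0.02 and 0.00, and Rack1, a signalling scaffold on the small subunit, by -0.15, -0.16 and 0.04. The mitochondrial ribosomal proteins, which make up the separate ribosome of that organelle, had 16 of 67 genes above 0 and 51 below, with a median of -0.05 and batch medians of 0.01, -0.03 and -0.09. Without the arrays of batch 3 there were 25 above 0 and 40 below, with a median of -0.02. Of these 67 genes 1 was called at an unadjusted p under 0.05 in limma, Mrps21, which was lower (-0.23, unadjusted p = 0.0319), and the share of all probe sets called is the 3.35% given above for this list and those that follow. Mrpl46 and Mrpl13 followed with -0.16 and -0.14 and did not pass.

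The ribosome assembly factors, which process the ribosomal RNA and join the proteins to it in the nucleolus, had 14 of 50 genes above 0, 33 below and 3 at 0, with a median of -0.03. Their batch medians were 0.055, -0.025 and -0.105, and without the arrays of batch 3 there were 28 above 0 and 19 below. Of these 50 genes 1 was called, Ebna1bp2, a factor of large subunit assembly, which differed by -0.06, -0.20 and -0.30 (mean -0.19, unadjusted p = 0.0431 in limma). RNA polymerase I and its factors, which transcribe the ribosomal RNA, had 5 of 11 genes above 0 and 6 below, or 7 above and 4 below with centred arrays, and 0 called. The S6 kinases and the mTOR pathway had 12 of 17 genes above 0 and 5 below and 0 called. Without the arrays of batch 3, 9 were above and 7 below. The smallest unadjusted p values of that list in limma were 0.103 for Rps6ka2 and 0.223 for Rps6ka4. Rps6ka2 was lower in every batch (mean -0.13) and Rps6ka4 higher in every batch (mean 0.09), at low mean log2 signals of 5.82 and 4.585. Of all probe sets 10.9% were lower and 9.41% higher in all 3 batches. Rps6kb1, the main S6 kinase, and Mtor, not among the smallest p, had mean differences of 0.02 and 0.01. Of 15 other mRNAs with a 5′ terminal oligopyrimidine motif, 6 were above 0 and 8 below, or 9 above and 5 below with centred arrays, and 0 were called, and of 9 p53 pathway genes 7 were above 0 and 2 below, or 3 above and 5 below without the arrays of batch 2, and 0 were called.

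**Figure D5:**
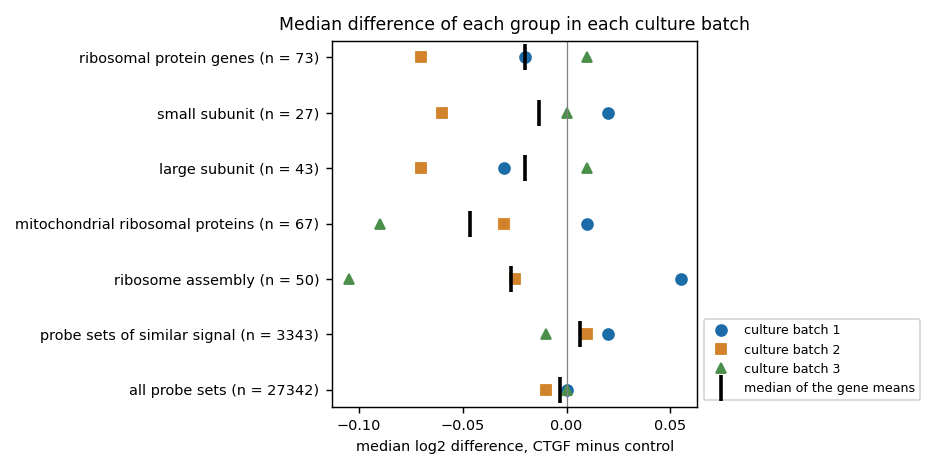
The median log2 difference, CTGF minus control (x axis), of each group of genes in culture batches 1, 2 and 3 (points) and of the gene means (black bar), with the number of genes or probe sets in brackets. The ribosomal protein genes lie at -0.02, -0.07 and 0.01, the ribosome assembly genes at 0.055, -0.025 and -0.105, and all probe sets at 0.00, -0.01 and 0.00.

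Markers of the cell types in the ovary moved with the batches too. The 8 measured oocyte markers, among them Ddx4, Gdf9 and Kit, had batch medians of 0.12, -0.205 and 0.21, with 7 of the 8 above 0 on average, and 4 above and 4 below without the arrays of batch 3. The list was split in batch 2, with 5 below 0 and 3 above. There Ddx4 differed by -0.26, but Gdf9 by 0.14 and Kit by 0.15. Their summed signal was 5971 to 6718 on the CTGF arrays and 5769 to 6513 on the control arrays. Kit, the receptor of Kit ligand on the oocyte, was the 1 marker of this list called, higher by 0.19 (unadjusted p = 0.0326 in limma). The 8 pregranulosa markers had batch medians of -0.165, 0.065 and 0.10 and summed signals of 6514 to 7039 with CTGF and 6621 to 7156 in controls, with 4 above 0 and 4 below, and all 8 above 0 without the arrays of batch 1.

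The 7 stromal markers had batch medians of 0.12, 0.05 and -0.43, with all 7 above 0 in batch 1 and all 7 below 0 in batch 3, and summed signals of 5030 to 6164 with CTGF and 5642 to 6934 in controls. On average 0 were above 0 and 6 below, and without the arrays of batch 3, 6 were above and 1 below. Among them Pdgfra, a receptor of stromal cells, differed by -1.03 in batch 3. The 6 leukocyte markers had batch medians of 0.02, -0.05 and -0.16, with 2 above 0 and 4 below. Without the arrays of batch 3, 4 were above and 2 below. Their summed signals were 1511 to 1603 with CTGF and 1655 to 1820 in controls. The 1 called, Cpa3, a mast cell protease, differed by -0.14, -0.80 and -1.52 (unadjusted p = 0.0121 in limma), and the other 5 had mean differences of -0.07 for Mrc1 to 0.07 for Csf1r. The leukocyte sums include Cpa3, and no sum was taken without it. The 4 endothelial markers summed to 359 to 393 with CTGF and 386 to 427 in controls, with 1 above 0 and 3 below. Of them 2 were above and 2 below without the arrays of batch 3. The 5 red blood cell markers summed to 776 to 942 with CTGF and 798 to 969 in controls, with 0 above 0 and 5 below, or 2 above and 3 below without the arrays of batch 2. That sum was mostly Hbb, at a mean log2 signal of 9.6, while the others lay at 4.2 to 4.8. In batch 2 the oocyte markers (5 below 0 and 3 above) and the ribosomal protein genes both had their lowest batch median. The part of the cell type makeup in the ribosomal protein differences was not tested. A log2 signal on these arrays has no 0 level that would mark an absent transcript.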

How the data were processed

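Labels gave the groups and the culture batch of each pool, and each value column belongs to a sample. The authors summarized the probes with RMA in Partek, with a GC-content adjustment, and deposited log2 values with 2 decimals, and the annotation that the methods name is of the rn4 assembly. The CTGF and control array of a batch have a mean that, probe set by probe set, is the same in the 3 batches to within 0.005, so batch differences were removed ahead of deposit and 2 residual degrees of freedom are left. The test was limma's (version 3.58.1, run under R 4.3.3) with the culture batch as a block and prior degrees of freedom of 4.22, and p values were adjusted by Benjamini-Hochberg over the whole table of 27342 probe sets with no filter on signal. The p values rest on the spread between these pools for each probe set, moderated toward the spread over all probe sets. The script was tested on simulated data.

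The platform annotation named the probe sets, and 72 of the 73 genes matched RefSeq by Entrez number. The members and lists were chosen with earlier results of these data known, and no set test was run. The named genes are, per subunit, the 4 with the smallest p, the 3 at either end of difference and of signal, the 3 widest over batches, members with a role outside the ribosome or in disease, paralogs and the stalk, and up to 3 per other list. Some genes of the family are not reported here. The alternatives were no block, centred medians, quantile normalization, a signal filter, the methods' 2-way test, the trend and robust options of limma, and each replicate left out.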

Additional observations from a re-analysis of the deposited data

How the results depend on the processing

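No probe set passed an adjusted p of 0.05 under any of the alternatives, where the smallest adjusted p was 0.0609, in the fit with no replicate block. In that fit, without the pairing by culture batch, 4415 probe sets (16.1%) had an unadjusted p under 0.05 against 915 with the block, and 7 ribosomal protein genes did (Rpl22l1 and Rps29 higher, Rpl24, Rpl37a, Rps12, Rps26 and Rps4x lower) against 1. The fit with no block counts degrees of freedom that the equal batch means had used up before deposit. With only probe sets of mean log2 signal over 6 there were 355, from fewer probe sets tested, and the methods' 2-way test called 2 ribosomal protein genes, Rpl24 and Rps29, and 4.2% of all probe sets. With each replicate left out in turn the number of ribosomal protein genes called ran from 0 to 1, with 0 without batch 1 or batch 2, beside 2.36% to 4.55% of all probe sets. The median of the 73 genes ran from -0.03 to 0.00 over all alternatives.

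Centring, quantile normalization and the left-out replicates are the 5 settings that can move a log2 difference, and the others leave it as it is. Of the 155 values of the 31 named genes under those 5, 126 kept their direction, 8 were at 0 and 21, of 15 genes, turned sign. With centred arrays the log2 difference turned to 0.003 for Rpl13a, 0.010 for Rpl17-ps16 and 0.010 for Rpl22, and with quantile normalization to 0.011 for Rpl10 and 0.004 for Rpl30. With each replicate left out it ran from -0.07 to 0.015 for Rpl10, -0.025 to 0.085 for Rpl11, -0.065 to 0.015 for Rpl17 and -0.08 to 0.12 for Rpl17-ps16. It ran from -0.035 to 0.03 for Rpl22, -0.10 to 0.04 for Rpl36al1, -0.095 to 0.01 for Rpl5 and -0.025 to 0.095 for Rplp2. The ranges were -0.195 to 0.09 for Rps15, -0.09 to 0.13 for Rps15a, -0.01 to 0.10 for Rps19, -0.265 to 0.13 for Rps27 and -0.08 to 0.06 for Rpsa. The causes of these turns were not tested. Signals of 3 arrays a group, with batch means taken out, limit what can be told of differences this small.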
